A study of Mus musculus with 9 samples.

Results

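Ephrins and Eph receptors were described in RNA-seq read counts from bone marrow endothelial fractions. The genes were 9 of the 46078 in the count table, found by name: the ephrin genes Efna1, Efnb1 and Efnb2 and the receptor genes Epha2, Epha4, Epha7, Ephb1, Ephb2 and Ephb4. Ephrins are membrane-bound ligands and Eph receptors are receptor tyrosine kinases, so the pair signals mainly where cells touch, forward into the receptor cell and in reverse into the ephrin cell. A-type ephrins are held by a lipid anchor and bind mostly EphA receptors, whereas B-type ephrins span the membrane and bind mostly EphB receptors, with Epha4 a receptor for both. In blood vessels Efnb2 is the classical arterial ephrin and Ephb4 the classical venous receptor, and contact between them takes part in arteriovenous boundary formation and in angiogenesis.

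The mice were normal wild-type B6, and their age and sex are not given in the labels. Bone marrow cells negative for CD45 (leukocytes) and Ter119 (erythroid cells) and positive for CD31 (Pecam1) were sorted by the surface protein Sca-1 (encoded by Ly6a). There were 4 Sca-1+ libraries (labelled with the end numbers 7, 13, 15 and 19) and 5 Sca-1- libraries (8, 10, 14, 16 and 22). Each was made with a low-input full-length cDNA kit from 2 ng of total RNA, and the labels do not say which libraries came from separate animals, so p-values measure the spread between these libraries. The labels of Sca-1+ 15 and Sca-1- 16 share a number beside the end number. These libraries were treated as independent but may share an animal. The labels of Sca-1+ 13 and Sca-1- 10, 14 and 22 share a different number, which follows the letters CD in all but Sca-1- 10. It may stand for a CD45 variant, which the paper names for its B6 mice, rather than for an animal. The labels thus do not show whether these libraries, also treated as independent, share an animal.

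The libraries held 21581650 to 25959820 counts. Ly6a was at 1133 ± 187 CPM (counts scaled to the library total and by TMM; SD, n = 4) in Sca-1+ and 0.678 ± 0.524 CPM (n = 5) in Sca-1- libraries, as the gate requires. Pecam1 was at 1399 ± 261 CPM in Sca-1+ and 836 ± 613 CPM in Sca-1- libraries, with overlap and no call (edgeR adjusted p = 0.25). Ptprc, which encodes CD45, was at 0.843 ± 1.20 CPM and 28.9 ± 14.1 CPM (log2 -5.10, edgeR adjusted p = 0.0069), although both fractions were sorted as CD45-negative. Of 20 endothelial markers, 18 were higher in Sca-1+ libraries, and their summed level was 15065 to 19055 CPM there against 1322 to 3920 CPM in Sca-1- libraries. Esam and Myct1 were not called. In Sca-1- libraries Esam, an adhesion gene that platelets also carry, was at 303 to 2376 CPM and Myct1 at 127 to 1176 CPM. Together they made up much of the sum there, and both remain among the 20 markers used for scaling below. Cdh5, the junctional cadherin of endothelial cells, was at 264 ± 27.2 CPM in Sca-1+ and 7.14 ± 3.92 CPM in Sca-1- libraries. All 16 megakaryocyte markers were lower in Sca-1+, with sums of 45.0 to 96.3 CPM against 27382 to 119538 CPM. Libraries labelled Sca-1- endothelial cells thus held little Cdh5 and much RNA of megakaryocyte and platelet genes. Endothelial markers were still above the floor of 3 counts there, except Ptprb in Sca-1- 10, which was at it. Library Sca-1- 10 had the lowest arterial and the highest megakaryocyte sum, and library Sca-1+ 19 stood apart from the other Sca-1+ libraries by its neutrophil genes (761 CPM, the next at 61.2 CPM). Sca-1+ and Sca-1- samples carry separate runs of label numbers, so a batch that follows these numbers and the fraction cannot be told apart. In these bulk samples fewer cells of a type and less RNA per cell cannot be told apart.

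Efnb2, Ephb4 and Epha2 are the endothelial ligand and receptors to which most of the results below return, and the 250 bases before their start sites are shown to place the genes in the genome and to show how their proximal promoters differ. The sequences are from RefSeq on GRCm38.p6, 5′ to 3′ on the strand of the gene, and capitals mark matches to 6 short motifs searched on both strands.
Efnb2, chr8:8661243-8661492, minus strand: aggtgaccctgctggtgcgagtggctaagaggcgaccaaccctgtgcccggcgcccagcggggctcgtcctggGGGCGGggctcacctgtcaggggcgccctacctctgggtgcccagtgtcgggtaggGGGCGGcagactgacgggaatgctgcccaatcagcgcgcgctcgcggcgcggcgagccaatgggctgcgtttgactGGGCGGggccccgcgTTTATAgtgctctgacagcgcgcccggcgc
Ephb4, chr5:137349859-137350108, plus strand: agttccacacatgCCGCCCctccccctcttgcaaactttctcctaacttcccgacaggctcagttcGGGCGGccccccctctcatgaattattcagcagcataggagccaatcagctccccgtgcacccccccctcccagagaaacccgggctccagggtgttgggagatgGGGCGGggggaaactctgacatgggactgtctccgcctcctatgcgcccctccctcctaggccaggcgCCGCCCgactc
Epha2, chr4:141300971-141301220, plus strand: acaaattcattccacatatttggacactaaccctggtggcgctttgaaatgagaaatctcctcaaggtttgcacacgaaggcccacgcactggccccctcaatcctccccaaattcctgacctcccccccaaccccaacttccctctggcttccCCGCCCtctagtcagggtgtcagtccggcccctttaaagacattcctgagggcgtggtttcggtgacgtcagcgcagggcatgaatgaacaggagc
The Efnb2 window held 3 GC boxes and a TATA motif, the Ephb4 window 4 GC boxes and the Epha2 window 1 GC box. The motifs were the ETS core CCGGAA (in 12.0% of all 32851 RefSeq windows of this length), FOX TGTTTAC (3.17%), SOX AACAAT (9.42%), RBPJ TGGGAA (21.6%), the GC box GGGCGG (32.7%) and TATA as TATAAA (12.4%). All 9 genes had an entry, with 11 windows because Efna1 and Epha7 had more than 1. The GC box was in 8 of these windows, RBPJ in 4 (Epha4, Efnb1 and both of Epha7), the ETS core in that of Ephb2, SOX in that of Ephb1, TATA in that of Efnb2, and FOX in 0. The Epha7 windows overlap, so the GC box and RBPJ matches of this gene are the same sites counted in each window. The median GC content was 64.8% over the 11 windows and 52.4% over all windows, with medians of 16 and 6 CpG dinucleotides.

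The comparison of the fractions asked which ephrins and receptors differ between the Sca-1+ and Sca-1- fractions of marrow cells sorted as endothelial. With TMM scaling, 6 of the 9 genes were higher in Sca-1+ libraries (Efna1, Efnb1, Efnb2, Epha2, Ephb1 and Ephb4). Ephb2 was lower, and Epha4 and Epha7 were not called. With scaling to the 20 endothelial markers, however, 0 of the 9 were higher and 4 were lower, beside 88.3% of all genes lower. The 4 were Efnb1, Epha4, Epha7 and Ephb2. Under that scaling Efnb1, Epha4, Ephb1 and Ephb4 changed sign, Ephb1 and Ephb4 without a call. The edgeR quasi-likelihood F-test at a Benjamini-Hochberg adjusted p under 0.05 over 15937 genes called 23.3% of all genes higher, 21.4% lower and 44.8% in either direction. Every Sca-1+ library lay above every Sca-1- library for 7 of the 9 genes, beside 24.8% of all tested genes, and the reverse held for 1, beside 18.8%, so that 8 of 9 did not overlap, beside 43.6%. Of the 9 genes, 5 were called higher with a log2 fold change of at least 3, beside 8.55% of all genes tested. The median log2 fold change was 3.17 over the 9 genes and 0.07 over all genes tested. Scaling to the endothelial markers moved the median of all genes by -4.31 on the log2 scale. Changes on the TMM scale are relative to a trimmed mean over the genes tested, and those on the other scale relative to the 20 endothelial markers.

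**Figure D1:**
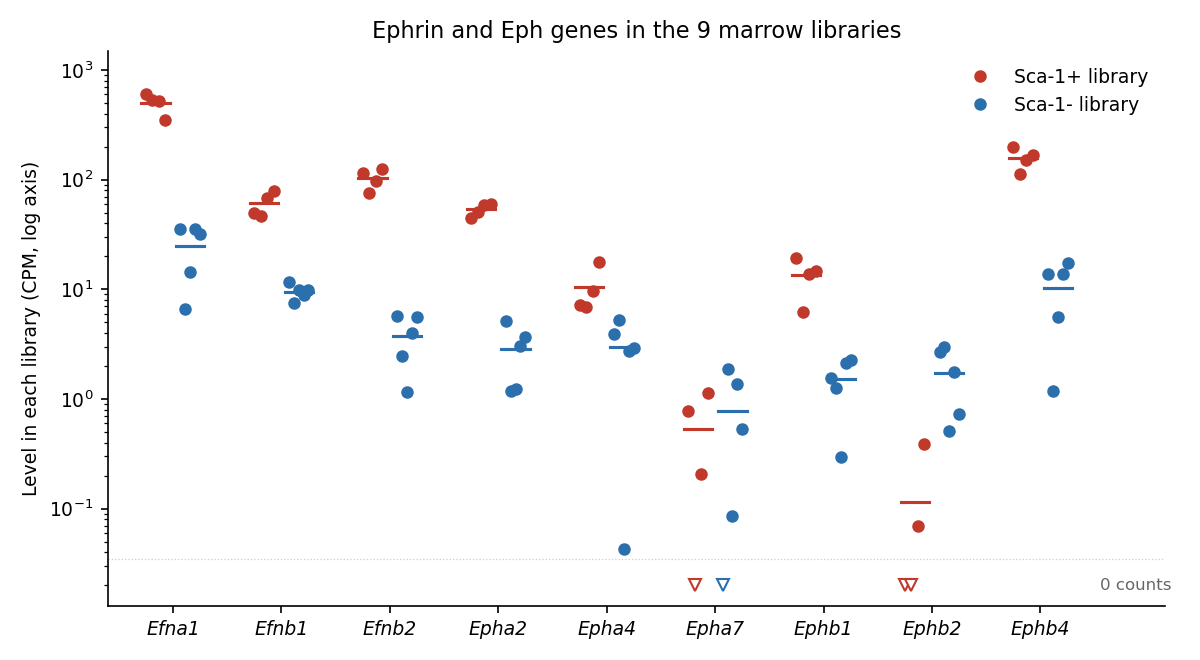
Level of each of the 9 genes in each library, in CPM on a log axis; points are libraries, short bars are the means of the 4 Sca-1+ and 5 Sca-1- libraries, and open triangles mark libraries with 0 counts. On this TMM scale Sca-1+ libraries lie above all Sca-1- libraries for 7 genes, below them for Ephb2, and among them for Epha7. When scaled to endothelial markers, Efnb1, Epha4, Ephb1 and Ephb4 change sign, Ephb1 and Ephb4 without a call.

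Efna1 (chr3:89271733-89281142, minus strand, GRCm38) encodes an A-type ephrin that endothelial cells induce in response to inflammatory cytokines. Its level was 605, 531, 521 and 354 CPM in Sca-1+ libraries 7, 13, 15 and 19. In Sca-1- libraries 8, 10, 14, 16 and 22 it was 35.3, 6.56, 14.5, 35.6 and 31.9 CPM. The lowest Sca-1+ library lay far above the highest Sca-1- library, and the mean was 20.3-fold higher by the fit (log2 fold change 4.34, SE 0.49, edgeR adjusted p = 1.1e-04). When scaled to endothelial markers the log2 difference was 0.19 (edgeR adjusted p = 0.62).

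Efnb2 (chr8:8617434-8661242, minus strand), the transmembrane ephrin of arteries, was at 116, 75.3, 96.9 and 126.3 CPM in Sca-1+ libraries 7, 13, 15 and 19. It was at 5.77, 2.44, 1.15, 4.02 and 5.54 CPM in Sca-1- libraries 8, 10, 14, 16 and 22. This was the largest increase among the 9 genes on the TMM scale, 27.4-fold (log2 4.77, SE 0.46, edgeR adjusted p = 4.7e-05), and the sign held under endothelial scaling without a call (0.51, edgeR adjusted p = 0.30). The arterial markers stood in the same order: 15 of 16 were higher in Sca-1+ libraries, and their sums were 2571 to 3260 CPM against 45.7 to 105 CPM. So did 18 of 20 endothelial markers, 7 of 8 venous and sinusoidal markers (1 lower) and 8 of 11 tested smooth muscle and pericyte markers (0 lower). This order is therefore not particular to arterial genes, and the part of any of these in the Efnb2 difference was not tested.

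Efnb1 (chrX:99136130-99148991, plus strand), the other B-type ephrin of the set, had a narrow spread among Sca-1- libraries. It was at 50.0, 46.6, 67.9 and 79.4 CPM in Sca-1+ libraries 7, 13, 15 and 19, and between 7.47 and 11.7 CPM in the 5 Sca-1- libraries. Its mean was 61.0 ± 15.4 CPM against 9.54 ± 1.53 CPM, 6.39-fold higher on the TMM scale (log2 2.68, SE 0.23, edgeR adjusted p = 3.3e-05) and lower under endothelial scaling (log2 -1.64, edgeR adjusted p = 0.0011). It was the 1 gene of the 9 called in opposite directions by these scalings. Efnb1 is also made by cells outside the endothelium, and smooth muscle and pericyte markers summed to 687 to 1674 CPM in Sca-1+ and 20.3 to 97.5 CPM in Sca-1- libraries, whereas stromal and osteoblast markers summed to 412 to 1618 CPM and 3535 to 44775 CPM. Their part in the level of Efnb1 was not tested.

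Among receptors, Ephb4 (chr5:137350109-137378669, plus strand), which binds Efnb2, had the highest level per kb of exon in Sca-1+ libraries (given below). It was at 199, 113, 150 and 168 CPM in libraries 7, 13, 15 and 19. In Sca-1- libraries 8, 10, 14, 16 and 22 it was at 13.8, 1.19, 5.56, 13.9 and 17.3 CPM, the lowest being library 10. Ephb4 was 15.2-fold higher on the TMM scale (log2 3.92, SE 0.61, edgeR adjusted p = 6.2e-04) and close to level under endothelial scaling, with the sign turned (log2 -0.16, edgeR adjusted p = 0.76). Of 8 venous and sinusoidal markers 7 were higher in Sca-1+ and 1 lower, with sums of 769 to 1296 CPM against 57.8 to 250 CPM. On 33 exon bases Ephb4 overlaps Zan on the opposite strand, which had 0 to 9 counts.

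Epha2 (chr4:141301240-141329384, plus strand), an EphA receptor that binds Efna1, was at 44.3, 51.2, 58.6 and 59.8 CPM in Sca-1+ libraries and at 5.11, 1.19, 1.23, 3.02 and 3.66 CPM in Sca-1- libraries, in the same order of libraries. The Sca-1+ libraries lay close together, all above the Sca-1- libraries (18.8-fold, log2 4.23, SE 0.45, edgeR adjusted p = 7.4e-05), and endothelial scaling left a difference of 0.02 (edgeR adjusted p = 0.97). Ephb1 (chr9:101922128-102354693, minus strand), a receptor for B-type ephrins, was at 19.5, 6.16, 13.9 and 14.8 CPM against 1.56, 1.26, 0.297, 2.13 and 2.28 CPM. It was 8.98-fold higher (log2 3.17, SE 0.56, edgeR adjusted p = 0.0013) and had the opposite sign without a call under endothelial scaling (-1.12, edgeR adjusted p = 0.11). Ephb1 shares 152 exon bases with the opposite-strand gene Gm26846, which had 0 to 8 counts.

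Ephb2 (chr4:136647539-136835988, minus strand), another receptor for B-type ephrins, went the other way. It had 0, 0, 2 and 10 counts in Sca-1+ libraries 7, 13, 15 and 19, and 45, 43, 12, 53 and 18 counts in Sca-1- libraries 8, 10, 14, 16 and 22. Of the 4 Sca-1+ libraries 3 were at or under the floor of 3 counts (0.0996 to 0.209 CPM), so at this depth the size of the difference is poorly set. The fitted log2 fold change was -3.90 (SE 1.19, edgeR adjusted p = 0.022), and the call was lost without Sca-1+ library 7 (-3.48, edgeR adjusted p = 0.051) or 15 (-3.72, edgeR adjusted p = 0.072). It was lower under each scaling tried. Beside it, all 16 megakaryocyte and 13 of 15 leukocyte markers were lower in Sca-1+ libraries, with leukocyte sums of 255 to 410 CPM against 2390 to 4775 CPM; their part in the Ephb2 counts was not tested.

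Epha4 (chr1:77367185-77515088, minus strand), the receptor that binds both ephrin classes, was at 7.16, 6.85, 9.74 and 17.9 CPM in Sca-1+ and 3.90, 5.24, 0.0424, 2.76 and 2.93 CPM in Sca-1- libraries. The groups did not overlap, but the difference was not called (log2 1.81, SE 0.81, 95% interval 0.02 to 3.60, edgeR adjusted p = 0.092). Library Sca-1- 14 held 1 count of Epha4 where the other Sca-1- libraries held 65 to 83, and without it the log2 fold change was 1.37 and called (edgeR adjusted p = 0.029). It was also called with library size only (2.31, edgeR adjusted p = 0.036) and with limma voom (2.67, limma adjusted p = 0.038), so that 8 of the 9 genes were called under each, and the sign turned under endothelial scaling (-2.73, edgeR adjusted p = 0.024). Epha7 (chr4:28813131-28967499, plus strand), an EphA receptor best known from the nervous system, had 0 to 29 counts in Sca-1+ and 0 to 41 counts in Sca-1- libraries, with full overlap. Its log2 fold change was -0.54 with a 95% interval of -3.40 to 2.32 (edgeR adjusted p = 0.76), so a sizeable difference in either direction was not detectable at this depth.

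**Figure D2:**
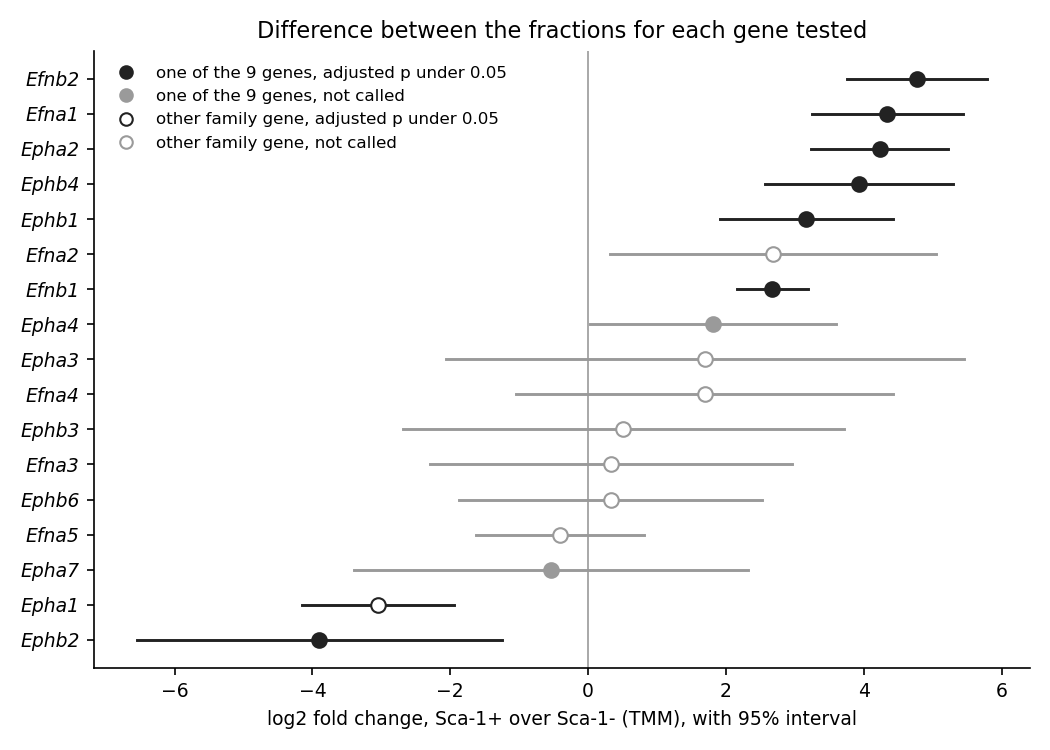
Fitted log2 fold change of Sca-1+ over Sca-1- libraries on the TMM scale with its 95% interval for the 17 ephrin and Eph genes tested; filled points are the 9 genes, open points other family genes, dark points have an adjusted p under 0.05. Efnb2 has the highest value (4.77) and Ephb2 the lowest (-3.90). When scaled to endothelial markers, Efnb1, Epha4, Ephb1 and Ephb4 turn sign, Ephb1 and Ephb4 without a call. Efna2, Efna3, Efna4, Epha3, Ephb3 and Ephb6 turn sign as well.

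Levels of different genes were compared as CPM per kb of exon. In Sca-1+ libraries Efna1 came first at 275 ± 58.0 CPM per kb, followed by Ephb4 at 34.0 ± 7.76, Efnb1 at 17.7 ± 4.47, Efnb2 at 15.1 ± 3.28 and Epha2 at 11.4 ± 1.54 CPM per kb (SD, n = 4). Each of these lay above the next in 4 of 4 libraries except Efnb1 over Efnb2, which held in 3, and with the longest transcript as the length Efnb2 (21.6 CPM per kb) came before Efnb1 (18.7 CPM per kb). Ephb1, at 1.94 ± 0.787 CPM per kb, and Epha4, at 1.29 ± 0.640 CPM per kb, were neighbours that did not separate in every library, and Epha7 (0.0535 CPM per kb) and Ephb2 (0.00905 CPM per kb) came last of the 9. In Sca-1- libraries the order among the 9 began with Efna1 (13.5 ± 7.30 CPM per kb), Efnb1 (2.76 ± 0.444 CPM per kb) and Ephb4 (2.23 ± 1.45 CPM per kb). Efnb1 exceeded Ephb4 in 3 of 5 libraries, Epha2 (0.608 ± 0.358 CPM per kb) exceeded Efnb2 (0.552 ± 0.290 CPM per kb) in 3 of 5, and these neighbours did not differ beyond their spread.

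Expressed as shares, Efna1 made up 87.3 ± 4.83% of the summed ephrin level per kb in Sca-1+ libraries and 65.7 ± 16.3% in Sca-1- libraries. Ephb4 made up 67.5 ± 4.57% of the summed receptor level in Sca-1+ and 27.1 ± 16.2% in Sca-1- libraries, where it ran from 2.44 to 42.9%. Epha2 made up 23.5 ± 5.21% of the receptor level in Sca-1+ and 6.97 ± 3.01% in Sca-1- libraries. Ephb4 and Epha2 thus accounted for most receptor RNA in each Sca-1+ library. In Sca-1- libraries Epha1 had the largest mean share, at 51.6 ± 20.9%; it came before Ephb4 in libraries 8, 10 and 14 and after it in 16 and 22. Epha1 shares exon sequence with Zyx, which is taken up below. The Ephb4 and Epha2 shares in Sca-1- libraries are uncertain too, because Epha1 is part of the receptor sum. Epha1 took 30.7 to 76.7% of that sum in Sca-1- and 0.727 to 1.30% in Sca-1+ libraries, which by itself lowers the other shares in Sca-1-. In Sca-1- 14 Epha1 made up 68.0% and Ephb4 24.5%. Part of the contrast of Ephb4 and Epha2 between the fractions thus comes from Epha1, and shares without Epha1 are not given here. These shares do not depend on the scaling between libraries.

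**Figure D3:**
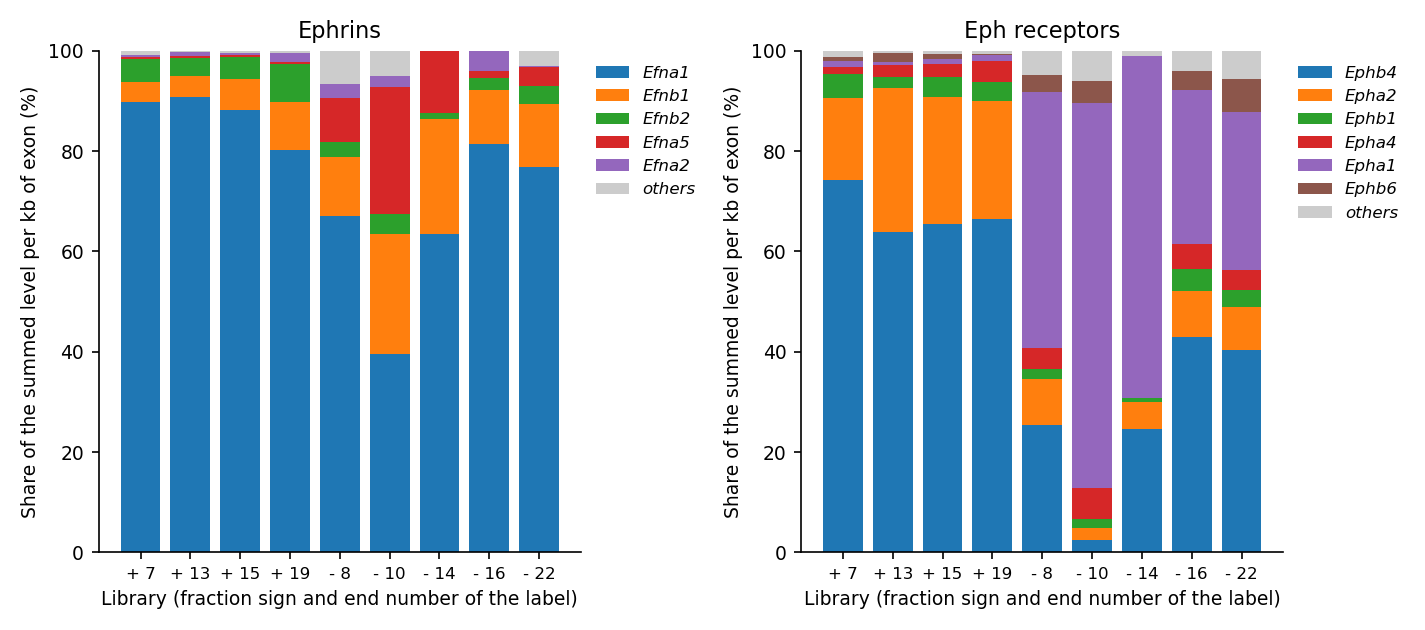
Share of each gene in the summed level per kb of exon, in percent, of the 8 ephrins (left) and 14 Eph receptors (right) in each library, named by the sign of its fraction and its end number. Efna1 fills 80.2 to 90.8% of the ephrin bar in Sca-1+ libraries. Ephb4 fills 63.9 to 74.2% of the receptor bar there but 2.44 to 42.9% in Sca-1- libraries, where Epha1 fills 30.7 to 76.7%. Reads on the exon bases Epha1 shares with Zyx cannot be told apart, so all receptor shares in Sca-1- libraries are uncertain.

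The ratio of Efnb2 to Ephb4, a ligand and its receptor that mark arteries and veins, also does not depend on scaling. Per kb of exon it was 0.394, 0.451, 0.436 and 0.509 in Sca-1+ libraries 7, 13, 15 and 19. In Sca-1- libraries 8, 14, 16 and 22 it was 0.283, 0.140, 0.195 and 0.217, and in library 10 it was 1.39. Ephb4 thus exceeded Efnb2 per kb in every library except Sca-1- 10, where the ratio came from 35 counts of Efnb2 and 17 of Ephb4 (95% counting interval 0.760 to 2.65). The mean log2 ratio was -1.17 ± 0.15 in Sca-1+ and -1.75 ± 1.30 in Sca-1- libraries, a difference of 0.58 that did not pass an exact two-sided permutation test (p = 0.42; the smallest p possible was 0.0079). Without library 10 the difference was 1.14, with all Sca-1+ libraries above the remaining 4 Sca-1- libraries (exact permutation p = 0.029, the smallest possible with 4 against 4). Of 11 alternative settings for this ratio, this was the 1 that passed. Leaving out Sca-1+ 19 together with Sca-1- 10 was among the 10 that did not pass.

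**Figure D4:**
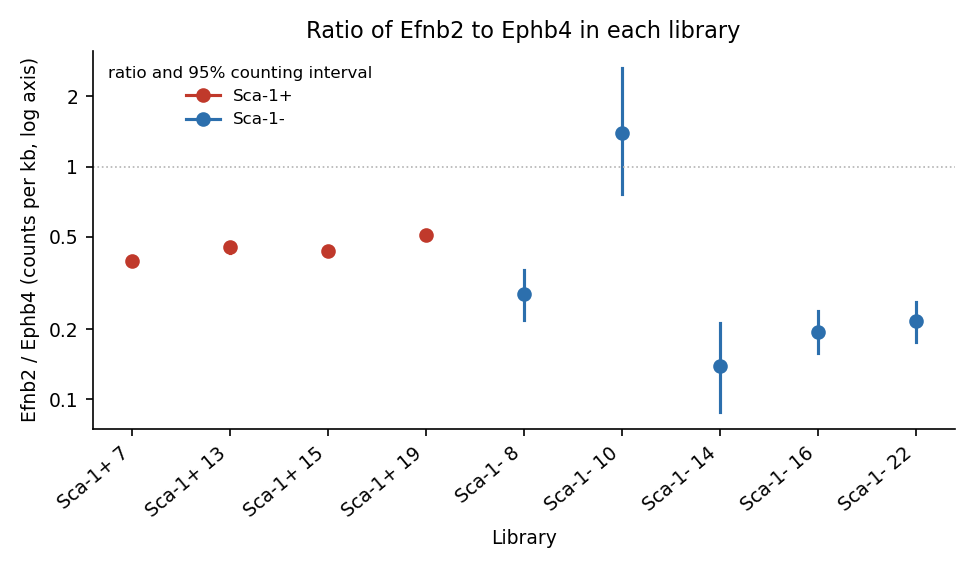
Ratio of Efnb2 to Ephb4 in counts per kb of exon in each library, on a log axis; points are ratios and vertical lines their 95% counting intervals, which the points cover in Sca-1+ libraries. The 4 Sca-1+ libraries sit between 0.394 and 0.509, 4 of the 5 Sca-1- libraries between 0.140 and 0.283, and Sca-1- 10 at 1.39.

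Because endothelial RNA differed between the fractions, each gene was also set against Cdh5 of the same library. Because Cdh5 itself was far higher in Sca-1+ libraries (log2 5.20), 93.2% of all genes tested were lower relative to Cdh5 at an exact two-sided permutation p under 0.05, not adjusted. Beside this, 6 of the 9 genes were lower and 0 were higher. Efnb1 differed by -2.73 on the log2 scale, at the smallest p possible (exact permutation p = 0.0079). Efna1 differed by -0.81 (exact permutation p = 0.0079), Epha2 by -0.98 (exact permutation p = 0.048) and Ephb1 by -2.16 (exact permutation p = 0.024). Ephb2 and Epha7 are also among the 6. All 6 ratios restate the level of Cdh5 to a large part, and 6 of 9 is a smaller share than the 93.2% of all genes. In addition, Ephb2 was at or under the floor in 3 of 4 Sca-1+ libraries, so the prior count sets its size, and Epha7 was not called by the fit above. Efnb2 (-0.45, exact permutation p = 0.35), Ephb4 (-1.03, exact permutation p = 0.056) and Epha4 (-3.00, exact permutation p = 0.056) did not pass. Set against the 20 endothelial markers in place of Cdh5, Efna1 was at 0.28, Efnb2 at 0.64, Epha2 at 0.11 and Ephb4 at 0.06, all of the opposite sign and none passing, and Efnb1 (-1.64), Epha7 and Ephb2 were lower, beside 87.7% of all genes tested. The difference of Efna1 from Cdh5 did not pass without Sca-1+ library 15 (-0.78, exact permutation p = 0.054) or 19 (-0.63, exact permutation p = 0.089). That of Ephb1 did not pass without any 1 of the Sca-1+ libraries 13, 15 and 19 or the Sca-1- libraries 8, 10, 16 and 22 (exact permutation p of 0.054 to 0.071), nor against the 20 markers (-1.07, exact permutation p = 0.17).

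The other 13 mouse ephrin and Eph genes were mostly low. Of these, 8 were tested, 0 were higher, 1 (Epha1) was lower, 7 were not called, and 5 did not pass the filter on low counts. The untested Epha5, Epha6 and Epha10 had 0 counts in all 9 libraries, Epha8 had 21 counts in Sca-1- 22 alone, and Efnb3, the third B-type ephrin, had 28, 8, 41 and 13 counts in Sca-1+ and 0 to 5 counts in Sca-1- libraries. Efna2, an A-type ephrin, had 5.69 ± 3.02 CPM in Sca-1+ and 0.879 ± 0.993 CPM in Sca-1- libraries without overlap, and its log2 fold change of 2.68 did not pass (edgeR adjusted p = 0.063) and turned sign under endothelial scaling. Without Sca-1- library 16 it passed, at 3.32 (edgeR adjusted p = 0.040). Efna5, an A-type ephrin with a known role in axon guidance, was at 4.55 ± 0.964 and 6.08 ± 3.77 CPM (log2 -0.41, edgeR adjusted p = 0.57), a sign that turned without TMM factors. Efna3 (0.33, edgeR adjusted p = 0.84), Efna4 (1.69, edgeR adjusted p = 0.29), Epha3 (1.69, edgeR adjusted p = 0.44), Ephb3 (0.51, edgeR adjusted p = 0.80) and Ephb6 (0.33, edgeR adjusted p = 0.81) each had under 4 CPM in every library, and all 5 turned sign under endothelial scaling.

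Epha1, an EphA receptor known from epithelia, was at 2.13 ± 0.769 CPM in Sca-1+ and 17.6 ± 9.68 CPM in Sca-1- libraries (log2 -3.05, SE 0.50, edgeR adjusted p = 8.0e-04). It lies on the minus strand at chr6:42358487-42373268 and shares 236 exon bases with Zyx on the plus strand (chr6:42349630-42360213), which encodes the focal adhesion protein zyxin. Zyx was at 75.9 to 146 CPM in Sca-1+ and 2528 to 9219 CPM in Sca-1- libraries. Epha1 counts per 1000 Zyx counts were 8.10 to 26.4 in Sca-1+ libraries and 2.91 to 3.93 in Sca-1- libraries, so the 5 Sca-1- libraries held the genes in nearly 1 ratio. With no strand setting given in the sources used here, reads of the shared exon bases cannot be told apart, and the Epha1 level in Sca-1- libraries is uncertain.

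**Figure D5:**
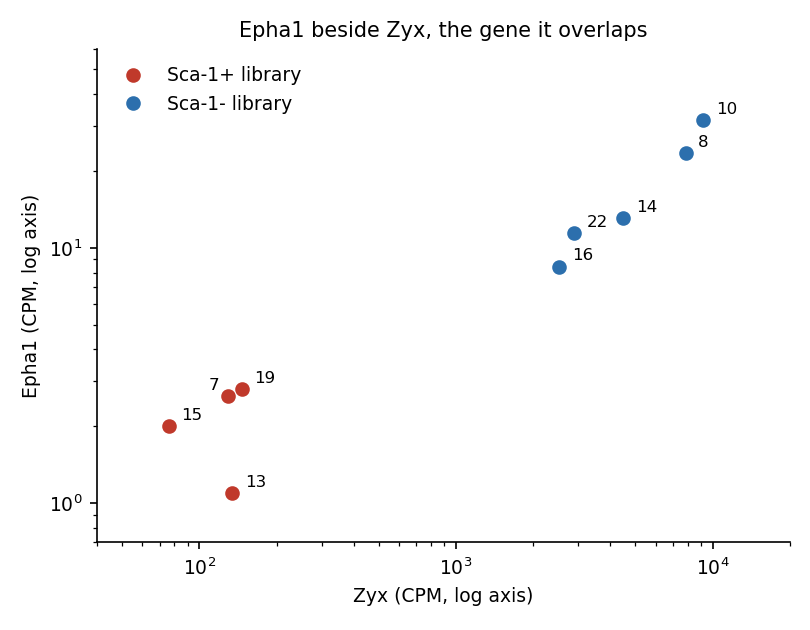
Level of Epha1 against Zyx in each library, in CPM on log axes, with points numbered by library. The 5 Sca-1- libraries lie at 8.43 to 31.6 CPM of Epha1 and 2528 to 9219 CPM of Zyx, and the 4 Sca-1+ libraries at 1.09 to 2.79 CPM and 75.9 to 146 CPM.

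Efna1 sits in a cluster of A-type ephrin genes on chromosome 3. Efna1, Efna3 and Efna4 lie in a row on the minus strand within 66.3 kb, and the 3′ end of Adam15, a membrane metalloprotease gene on the same strand, lies 514 bases from Efna4. The neighbours of the cluster did not share a level: Efna1 was at 503 ± 106 CPM in Sca-1+ libraries, Efna3 at 0.927 ± 0.198 CPM, Efna4 at 1.43 ± 1.27 CPM and Adam15 at 465 ± 66.6 CPM. In Sca-1- libraries these were 24.8 ± 13.4, 0.746 ± 0.891, 0.451 ± 0.674 and 14.3 ± 6.01 CPM. Efna3 and Efna4 overlap the opposite-strand transcripts Gm15998 and 4731419I09Rik on 344 and 168 exon bases, so their low counts are uncertain.

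The genes most like Efnb2 over the 9 libraries were found by the root mean square difference of mean-centred log2 CPM among 9867 genes with an average log2 CPM of at least 3. They were 4731419I09Rik (0.32), Fam171a1 (0.37), Ggta1 (0.39), Adam15 (0.40) and Epha2 (0.44). Of these, 4731419I09Rik shares 1263 exon bases with Adam15 on the opposite strand, and the counts of the pair cannot be told apart. For Ephb4 they were She (0.30), Yes1 (0.43), Nfib (0.43), Sema6a (0.44) and Fgd5 (0.45). Centring over all 9 libraries keeps the difference between the fractions in this measure. The log2 fold changes were 4.23 to 5.03 for the genes like Efnb2 (itself 4.77) and 3.58 to 4.68 for those like Ephb4 (itself 3.92). The likeness thus largely restates a similar difference between the fractions, and likeness within a fraction was not tested. Yes1 encodes a Src family kinase, one of the kinases that act below Eph receptors.

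Genes of the signalling steps after Eph and ephrin contact, and of the cleavage of ephrins and receptors, moved in both directions. Of 34 listed genes 33 were tested, 7 were higher in Sca-1+ libraries, 6 lower and 20 not called, shares close to or under those of all genes given above, and the median log2 fold change was 0.31. Among 22 genes of forward signalling 4 were higher and 4 lower, among 6 tested genes of reverse signalling 2 and 1, and among 5 genes of shedding 1 and 1. Arhgef15, an exchange factor of vascular cells that acts after Eph receptors, was at 119 ± 19.2 against 2.91 ± 2.94 CPM (log2 5.33, SE 0.96, edgeR adjusted p = 0.0014). Of the 5 Sca-1- libraries 2 were at or under the floor for it, so the size of this difference is poorly set. Yes1 (3.83, edgeR adjusted p = 4.0e-04), Rgs3 (3.58, edgeR adjusted p = 1.4e-04), which binds the tail of B-type ephrins, Ncstn (1.34, edgeR adjusted p = 0.0015), a part of gamma-secretase, and Dvl2 (0.59, edgeR adjusted p = 0.038) were also higher on the TMM scale, but Yes1, Rgs3, Ncstn and Dvl2 turned sign under endothelial scaling and Arhgef15 did not pass there (1.36, edgeR adjusted p = 0.13). The call of Dvl2 was lost without any 1 of the Sca-1+ libraries 7, 13 and 15 or the Sca-1- libraries 8, 10 and 14, with log2 values down to 0.41. Under endothelial scaling 0 of the 33 genes were higher and 28 were lower, beside 1.43% and 88.3% of all genes tested.

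At the lower end stood Kalrn, an exchange factor of EphB signalling in neurons, at 5.03 ± 1.94 CPM in Sca-1+ and 529.5 ± 337 CPM in Sca-1- libraries (log2 -6.72, edgeR adjusted p = 3.7e-05). Itsn1 (-4.45, edgeR adjusted p = 2.3e-04), an endocytic adaptor and exchange factor, Nck2 (-4.38, edgeR adjusted p = 5.2e-04), an adaptor for receptor tyrosine kinases, Cbl (-3.23, edgeR adjusted p = 0.0056), a ubiquitin ligase, and Pard6a (-2.17, edgeR adjusted p = 0.0062), a polarity protein, were lower as well, and these 5 were also lower under endothelial scaling. The megakaryocyte and leukocyte sums given above moved with these genes, and their part in the differences was not tested. Yes1, Ncstn and Dvl2 share exon bases with other genes, and their counts are uncertain to that extent.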

How the data were processed

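The study measured polyA RNA of sorted marrow endothelial cells by RNA-seq, in 4 Sca-1+ and 5 Sca-1- libraries grouped by the deposited labels. The authors deposited 1 table of raw, whole-number read counts per gene; the submitters' processing notes name STAR, featureCounts and the mm10 build, and versions, annotation release and strand setting are not given in the sources used here. Without molecular identifiers the counts include PCR copies, so intervals and floors cover counting error only.

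Counts were tested in R 4.3.3 with edgeR 4.0.16 (filterByExpr at a minimum count of 10 and a total of 15, TMM, quasi-likelihood F-test, two-sided, Benjamini-Hochberg over 15937 genes, threshold 0.05). The common dispersion was 0.301. Levels are TMM-scaled CPM, log2 CPM used a prior count of 2, and lengths are the union of exons in GENCODE M21 on GRCm38. Of 46078 gene identifiers, 935 were not in that annotation. Single values were tested exactly over the 126 splits of 9 libraries into 4 and 5. The planned adjustment over the 9 genes relative to Cdh5 was not used, because the genes were not chosen blind to results. DESeq2 1.42.0 and limma 3.58.1 gave alternatives.

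The 9 genes and all gene lists were chosen with earlier results of these data known. The text names all 22 ephrin and Eph genes, the genes of the sort, and Cdh5. Of the signalling and shedding lists it names the 5 highest and 5 lowest log2 fold changes among called genes with fully separate fractions and a mean log2 CPM of 3 or more, and for Efnb2 and Ephb4 the 5 genes most like each. No replicate copies were found: counts of replicates differed by at least 36.8 times the chi-square per degree of freedom that sampling alone gives. The labels give no replicate numbers that run through both fractions, and consecutive end numbers (7 and 8, 13 and 14, 15 and 16) were tried as pairs only as an alternative.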

Additional observations from a re-analysis of the deposited data

Results flagged for a closer look

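In 5 of 34 groups of libraries looked at, each 1 gene in 1 fraction, the lowest or the highest library stood apart from the others by more than Dixon's 95% critical ratio; chance flags about 1 in 20 groups. Values are log2 CPM. Epha3 was at 1.08 (50 counts) in Sca-1- 22, and the other 4 Sca-1- libraries had 0 counts. Epha4 was at -3.02 (1 count) in Sca-1- 14, with 65 to 83 counts in the others. Ephb3 was at -2.75 (2 counts) in Sca-1+ 13, with 31 to 48 counts in the others. Ephb6 was at -3.63 (0 counts) in Sca-1- 14, with 25 to 56 counts in the others, and at -1.68 (6 counts) in Sca-1+ 19, with 53 to 76 counts in the others. Library Sca-1- 14 appears in 2 of the 5.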

How the results depend on the processing

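The fold changes of the 9 genes depended most on the scaling. With libraries scaled to 20 endothelial markers, 14293 genes were called (228 higher, 14065 lower), with 4 of the 9 genes (Efnb1, Epha4, Epha7 and Ephb2, all lower), 5 of the other 13 family genes and 28 signalling and shedding genes; this scaling by its construction takes out the difference in endothelial RNA. Signs turned under it for Efnb1 (-1.64), Epha4 (-2.73), Ephb1 (-1.12), Ephb4 (-0.16), Efna2 (-1.52), Efna3 (-4.02), Efna4 (-2.78), Epha3 (-2.23), Ephb3 (-4.18), Ephb6 (-4.10), Yes1 (-0.25), Rgs3 (-0.75), Ncstn (-3.07) and Dvl2 (-3.74). Library size without TMM factors moved the median of all genes by 0.35 (log2). Of genes called, 63.1% were higher with it, 48.7% with DESeq2 size factors, 50.2% with upper-quartile scaling and 1.60% with endothelial scaling.

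Leaving out 1 library gave 5957 to 6969 genes called, 6 to 8 of the 9 genes, 1 to 2 other family genes, 10 to 14 signalling and shedding genes, differences of the log2 Efnb2 to Ephb4 ratio of 0.31 to 1.14, and 4 to 7 genes lower relative to Cdh5. The log2 fold changes that turned sign ranged from -1.20 to 0.0073 for Epha7 (without Sca-1- 10), -0.10 to 1.10 for Efna3 (without Sca-1- 14, and at -0.0099 without 16) and -0.10 to 0.69 for Ephb6 (without Sca-1- 14). Without Sca-1+ 19 and Sca-1- 10 together 6 of the 9 genes were higher and 1 lower, of 6077 genes called.

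Library size only and voom each called 8 of the 9 genes. Of the other family genes, 2 were called with library size only, 2 with DESeq2 and 3 with voom. Efna5 turned sign with library size only (0.19), voom (0.062) and the replicate block (0.15). Relative to the 20 endothelial markers in place of Cdh5, 3 genes were lower and signs turned for Efna1 (0.28), Efnb2 (0.64), Epha2 (0.11) and Ephb4 (0.065). The cause of these changes was not tested.

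The replicate block, with consecutive end numbers as 3 pairs, gave 4340 genes called, 7 of the 9 genes and 2 of the other family genes, and an alternative chosen after seeing the data, the same 6 libraries without the pairing, gave 5360, 7 and 2. The numbers were not taken as pairs, because the correlations of deviations were 0.147, 0.148 and 0.042, the last under 0.1. That last pair, Sca-1+ 15 and Sca-1- 16, shares another number in its labels, which a low correlation does not undo. For Sca-1- 8, 14 and 16 the library with the consecutive number still had the highest correlation among the Sca-1+ libraries. The next highest were 0.065, -0.033 and 0.025. Whether the libraries of a pair came from the same animal was not tested. Without Sca-1+ 15 or without Sca-1- 16, 6 and 7 of the 9 genes were called. With the block Cbl lost its call (-2.69, edgeR adjusted p = 0.061; 0.022 without the pairing) and Epha3 gained one (8.40, edgeR adjusted p = 0.038; 8.58 and 0.0072 without), library Sca-1- 22, which held its Sca-1- counts, being absent from both. The low counts of Epha7, Ephb2, Epha3, Ephb3 and Ephb6 limit what depth can show.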
